A study of Gallus gallus with 8 samples.

Results

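The glucocorticoid receptor gene NR3C1 and 5 genes known as its targets, ZBTB16, FKBP51, KLF9, SGK1 and TSC22D3, were followed in chicken liver after lipopolysaccharide (LPS, a cell wall component of Gram-negative bacteria). Each was found by its symbol in the deposited expression table, giving 6 of 13427 genes, and any m6A peak assigned to it was taken from the peak lists. Livers came from broiler chickens aged 21 days. The LPS group received 1 mg/kg of LPS from E. coli 055:B5 intraperitoneally, the control group received an equal volume of phosphate-buffered saline, and tissue was taken 2 h later. Polyadenylated RNA was fragmented, and an input part and a part pulled down with an antibody against N6-methyladenosine (m6A, a methyl mark on adenosines of mRNA) were sequenced, giving 8 libraries in 4 groups of 2. Whether both libraries of one group represent different birds is not stated, so p-values measure the spread between libraries, which may be technical. No genetic change is named for either group.

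Glucocorticoids such as corticosterone, the main one in birds, cross the cell membrane and bind the receptor, which waits in the cytoplasm in a complex with HSP90, HSP70-type chaperones and immunophilin co-chaperones. The bound receptor enters the nucleus and raises or lowers transcription of its target genes. In mammals the pathway restrains inflammatory signalling and drives gluconeogenesis in the liver, and several of its targets, FKBP51 among them, feed back on the receptor.

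Expression values were FPKM, fragments scaled to the length of the transcript and to the size of the library, on which levels of different genes can be placed in order. A gene was called where limma on log2(FPKM + 1) gave a Benjamini-Hochberg adjusted p under 0.05 over the 9484 genes that averaged 1 FPKM or more. All 6 genes passed that filter. ZBTB16 and FKBP51 were called higher after LPS and KLF9 was called lower, against 10.7% of all tested genes called higher and 31.4% called lower. Both LPS libraries lay above both control libraries for ZBTB16, FKBP51 and TSC22D3, as they did for 18.4% of tested genes. Both lay below for NR3C1 and KLF9, as for 55.8% of tested genes. In these bulk samples, fewer cells of a type and less RNA per cell cannot be told apart.

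The whole table leaned downwards. The tested genes had a median log2 fold change of −0.34, and 74.6% of called genes were lower. With the 4 libraries scaled to equal medians that median was −0.07, 14.1% of genes were called higher and 16.8% lower, and 54.3% of calls were lower. The direction of each of the 6 genes was the same under both scalings. Rank correlation over tested genes was 0.965 within control, 0.975 within LPS and 0.840 to 0.850 across states. Read totals were not used here, and the sums of FPKM ranged from 539984 to 568721. Of 8 hepatocyte markers, 2 were called higher and 2 lower, with summed levels of 61830 and 55870 FPKM in control and 65210 and 66380 FPKM in LPS libraries. Most of each sum came from ALB and APOA1, so the sums say little about the other markers. The log2 fold changes of the called markers were 1.28 for FGB, 1.04 for FGA, −1.14 for TTR and −3.78 for HNF4alpha. Among other cells, 7 of 8 macrophage markers were called lower (6 at equal medians), with sums of 1066 and 1224 FPKM in control and 807 and 748 FPKM in LPS. Ii (the CD74 entry), the marker not called, had 520 and 655 FPKM in control and 556 and 504 FPKM in LPS. It thus made up a large part of each sum. Of 8 endothelial markers, 4 were called lower (2 where medians were equalised, and also 2 where control library 1 or LPS library 2 was left out), with sums of 94.3 and 84.4 FPKM in control and 57.3 and 43.5 FPKM in LPS. Other lists held calls in both directions. Of 4 heterophil markers, 1 was called higher and none lower (2 higher at equal medians). The called marker, MMP9, had a control mean of 0.603 FPKM and an LPS mean of 3.46 FPKM, so it passed the filter on its LPS libraries. Of 3 thrombocyte markers and of 3 bile duct markers, 1 was called higher and 1 lower in each (1 higher and none lower at equal medians). Of 6 markers of stellate cells and fibroblasts, 1 was called lower (1 higher and 1 lower at equal medians). No tested marker of B cells or erythrocytes was called. None of these markers was listed at 0 in all libraries, and the part of these shifts in the results was not tested.

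**Figure D1:**
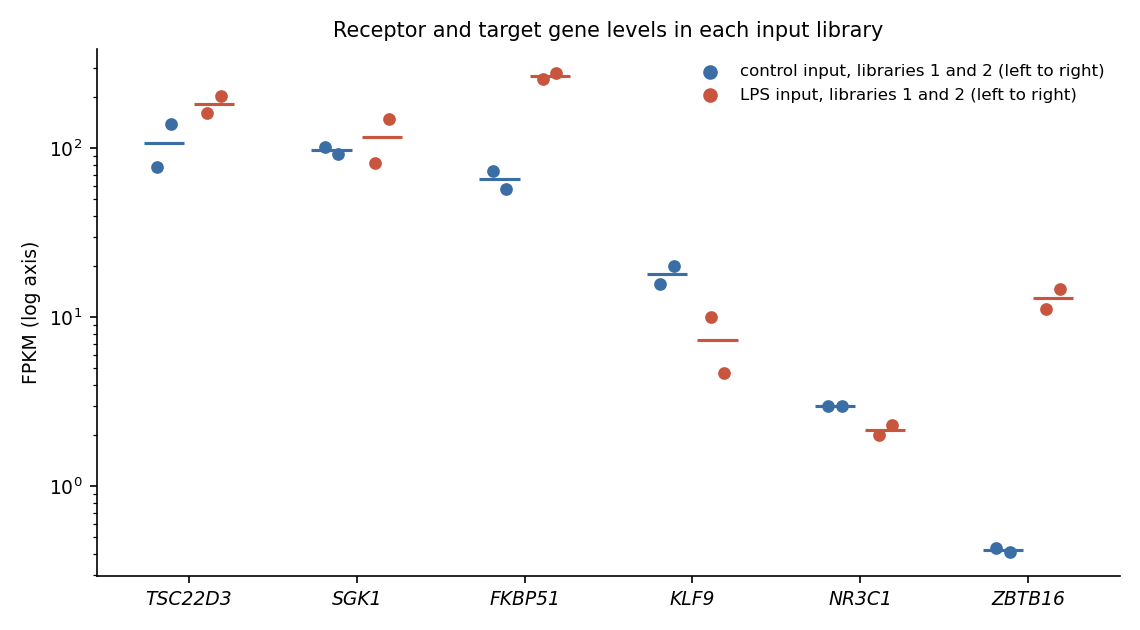
FPKM on a log axis for the receptor gene and its 5 targets. Points are the 2 control input and 2 LPS input libraries and short lines are group means; ZBTB16 moved from under 0.5 to over 10 FPKM, and SGK1 is the gene whose groups overlap.

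NR3C1 (ENSGALG00000007394), the receptor itself, was a low-level transcript in every library. It had 2.98 and 2.99 FPKM in the control libraries and 2.01 and 2.31 FPKM in the LPS libraries. Both LPS values lay below both control values. Its mean went from 2.99 ± 0.00587 to 2.16 ± 0.213 FPKM (SD, n = 2 per group), a log2 fold change of −0.34 (SE 0.21) with an adjusted p of 0.223, so it was not called. That change sat at the middle of the table, rank 4744 of 9484 from the highest. Adding 1 FPKM shrinks changes at such low levels. With 0.1 FPKM added instead, the log2 fold change was −0.45, against a median of −0.39 for all tested genes. At equal medians the log2 fold change was −0.11 (adjusted p = 0.726). Between 17.8% and 21.6% of tested genes had a lower level than NR3C1 in each library. NR3C2, the related mineralocorticoid receptor gene, which also binds glucocorticoids, stayed under the filter with 0.666 and 0.485 FPKM in control and 0.596 and 0.428 FPKM in LPS.

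Of 10 tested genes of the receptor and chaperone complex besides the members, 9 were called lower and none higher, and their median log2 fold change was −1.27 against −0.34 for all tested genes. At equal medians 6 of the 10 were called lower, with FKBP4, PPID and STUB1 no longer called. The list was chosen with earlier results of these data known. Of all tested genes 31.4% were called lower, or 16.8% at equal medians. STIP1, PTGES3, DNAJB1 and PPP5C, further co-chaperones of the list, were not matched to an entry of the table and were not analysed here. HSPA8, the constitutive HSP70-type chaperone, had 1548 and 1540 FPKM in control and 287 and 214 FPKM in LPS libraries, a log2 fold change of −2.64 (SE 0.19, adjusted p = 7.37e-05). HSP90AA1, an HSP90 gene, had 1068 and 830 FPKM in control and 190 and 77.1 FPKM in LPS libraries, with a log2 fold change of −2.95 (SE 0.38, adjusted p = 9.18e-04). Its relative HSP90AB1 had 160 and 103 FPKM against 21.0 and 27.3 FPKM, with a log2 fold change of −2.38 (SE 0.25, adjusted p = 3.67e-04). For these 3 genes every control value was several times every LPS value. HSP90AA1 and HSP90AB1, like HSPA8 and its relatives, are similar in sequence, and how reads shared between such genes were counted is not given in the sources used here. BAG1, a co-chaperone of HSP70, was the tested gene that was not called (log2 fold change −0.21, adjusted p = 0.484; chosen after its value was seen).

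FKBP51 (ENSGALG00000000947; FKBP5 in RefSeq), an immunophilin co-chaperone of HSP90 that lowers the hormone affinity of the receptor in mammals, rose. It had 73.7 and 57.4 FPKM in the control libraries and 257 and 278 FPKM in the LPS libraries. The groups were far apart, and the lowest LPS value was over 3 times the highest control value. Its mean went from 65.5 ± 11.5 to 268 ± 15.3 FPKM (SD, n = 2 per group), 4.08-fold, with a log2 fold change of 2.02 (SE 0.19, adjusted p = 2.15e-04), rank 235 of 9484 from the highest. It already stood above 87.2% to 90.3% of tested genes in control, and above 96.8% to 97.3% after LPS.

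FKBP4 encodes FKBP52, the immunophilin that takes the same place in the receptor complex and, in mammals, favours receptor transport to the nucleus. It had 78.3 and 68.9 FPKM in control and 47.1 and 38.1 FPKM in LPS libraries (log2 fold change −0.78, SE 0.18, adjusted p = 0.0126), and was chosen for description after its values were seen. The fall of FKBP4 was not called without control library 1, once libraries had equal medians (adjusted p = 0.0876), or without LPS library 2. Within a library, the level of FKBP51 divided by that of FKBP4 was 0.941 and 0.833 in control and 5.45 and 7.30 in LPS. This ratio does not depend on how libraries are scaled, and its groups did not overlap. FKBP51 over NR3C1 was 24.7 and 19.2 in control and 128 and 121 in LPS, whereas FKBP4 over NR3C1 was 26.2 and 23.1 in control and 23.4 and 16.5 in LPS. Of 10 tested paralogs of the FKBP family, none was called higher and 5 were called lower (2 at equal medians), with log2 fold changes from −1.74 to 0.53. The share of all tested genes called lower was 31.4%, or 16.8% at equal medians.

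ZBTB16 (ENSGALG00000007011), a BTB and zinc finger transcription factor known as PLZF and induced by glucocorticoids in many mammalian cell types, had the largest rise of the 6. It had 0.432 and 0.410 FPKM in control and 11.3 and 14.8 FPKM in LPS libraries. The control libraries were close together and near the bottom of the tested range, above only 1.1% and 1.0% of tested genes, whereas the LPS libraries stood above 61.9% and 68.2%. The mean went from 0.421 ± 0.0155 to 13.04 ± 2.50 FPKM (SD, n = 2 per group), a ratio of means of 31.0. With 1 FPKM added before taking log2, which shrinks changes from such low levels, the log2 fold change was 3.29 (SE 0.22, adjusted p = 4.53e-05), rank 82 of 9484. It passed the filter on its LPS libraries. A RefSeq table of another assembly (GRCg7b) lists this symbol as a synonym of ZBTB32, so its identity as ZBTB16 rests on the deposited symbol. The other 3 tested genes of the ZBTB list were not called, with log2 fold changes from −0.50 to −0.0047. T and NK cells also express ZBTB16 in mammals. Of 7 tested T and NK cell markers none was called higher and 1 lower (at equal medians 2 higher and none lower). Over all tested genes 10.7% were called higher and 31.4% lower, or 14.1% and 16.8% at equal medians. Summed levels of the 8 markers found overlapped, with 35.2 and 47.8 FPKM in control and 45.2 and 40.7 FPKM in LPS. The part of these cells in the level of ZBTB16 was not tested.

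KLF9 (ENSGALG00000027374), a Krüppel-like zinc finger factor that glucocorticoids induce in mammalian cells, fell. It had 15.8 and 20.2 FPKM in control and 10.1 and 4.69 FPKM in LPS libraries. The groups did not overlap, but the LPS libraries differed 2.15-fold. In log2(FPKM + 1) their gap was 0.959, at least as wide as in 97.8% of tested genes. The mean went from 17.99 ± 3.05 to 7.37 ± 3.798 FPKM (SD, n = 2 per group), 2.44-fold lower, with a log2 fold change of −1.25 (SE 0.31, adjusted p = 0.0156). The call was lost with no filter on low values (adjusted p = 0.0539) and without control library 2, where the log2 fold change was −1.09. Without LPS library 2 the change was −0.77. Among 11 tested KLF paralogs, 1 was called higher and 2 lower, and at equal medians 3 higher and 1 lower. For all tested genes the shares were 10.7% higher and 31.4% lower, or 14.1% and 16.8% at equal medians. KLF10, a factor induced by TGF-beta, had 64.8 and 50.6 FPKM in control and 6.78 and 9.72 FPKM in LPS (log2 fold change −2.67, SE 0.22, adjusted p = 1.44e-04). KLF5, best known from epithelia, had 0.144 and 0.223 FPKM in control and 4.12 and 5.69 FPKM in LPS (log2 fold change 2.31, SE 0.24, adjusted p = 3.45e-04). KLF10 was thus lower and KLF5 higher in both LPS libraries than in either control library, as were 55.8% and 18.4% of tested genes. Both control values of KLF5 lay under 1 FPKM, and it passed the filter on its LPS libraries.

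SGK1 (ENSGALG00000013971), a serum- and glucocorticoid-induced kinase that regulates ion transport and cell survival, was not called. It had 102 and 92.5 FPKM in control and 82.2 and 150 FPKM in LPS libraries. One LPS library lay below and the other above both control libraries, and they differed 1.82-fold. In log2(FPKM + 1) their gap was 0.856, at least as wide as in 96.9% of tested genes. The mean went from 97.3 ± 6.74 to 116 ± 47.6 FPKM (SD, n = 2 per group), a log2 fold change of 0.19 (SE 0.27, adjusted p = 0.60). Without LPS library 2 the sign turned, to −0.24, and without LPS library 1 the log2 fold change was 0.62. Both paralogs fell. SGK2 had 10.9 and 13.3 FPKM in control and 2.09 and 2.65 FPKM in LPS (log2 fold change −1.96, SE 0.21, adjusted p = 4.18e-04), and SGK3 was called lower too (log2 fold change −0.96, adjusted p = 0.00758; chosen after its value was seen).

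TSC22D3 (ENSGALG00000027069), which encodes GILZ, a glucocorticoid-induced leucine zipper protein that binds NF-kB and AP-1 in mammals, lay just outside the threshold. It had 77.4 and 139 FPKM in control and 161 and 204 FPKM in LPS libraries. Both LPS values were above both control values, and the control libraries differed 1.79-fold. In log2(FPKM + 1) the control gap was 0.833, at least as wide as in 95.6% of tested genes. The mean went from 108 ± 43.4 to 182 ± 30.2 FPKM (SD, n = 2 per group), 1.69-fold, with a log2 fold change of 0.80 (SE 0.28, adjusted p = 0.0508). At equal medians it was called higher, with a log2 fold change of 1.11 (adjusted p = 0.0187). The log2 fold change was 0.38 without control library 1 and 1.22 without control library 2. It was 0.97 without LPS library 1 and 0.63 without LPS library 2. RefSeq (GRCg7b) lists the accession of this entry as TSC22D4, with GILZ and TSC22D3 as synonyms. TSC22D1 and TSC22D2, the tested paralogs, were called lower (log2 fold changes −1.39 and −0.84, adjusted p = 0.00230 and 0.0113; chosen after their values were seen), and TSC22D2 was not called at equal medians. Lower calls made up 31.4% of all tested genes, or 16.8% at equal medians.

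**Figure D2:**
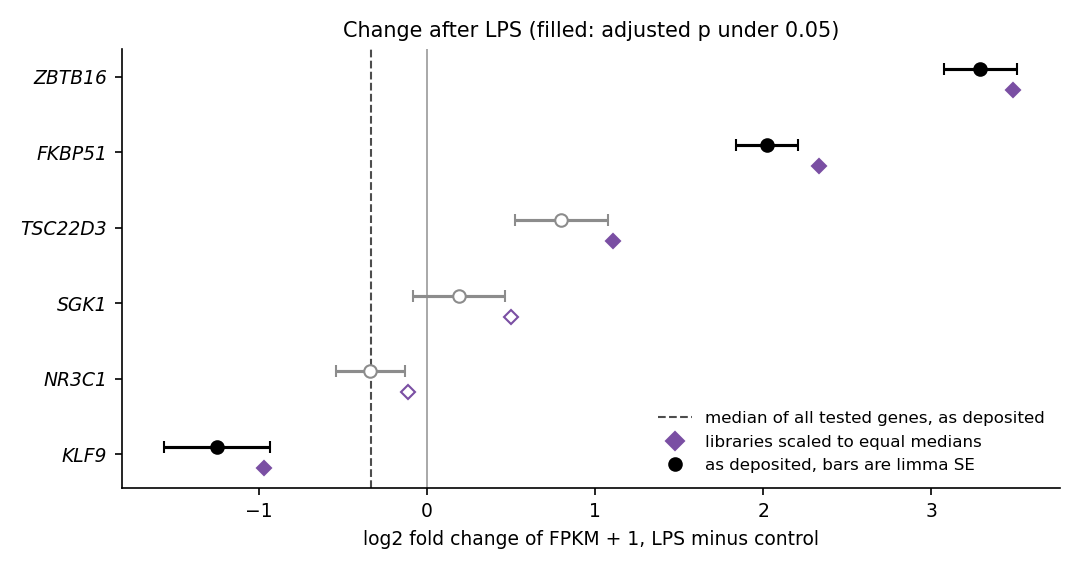
Log2 fold change of FPKM + 1, LPS minus control, for the 6 genes, with limma standard errors as bars for values as deposited (circles) and the change at equal medians (diamonds). Filled symbols have an adjusted p under 0.05; ZBTB16, FKBP51 and KLF9 are filled in both, TSC22D3 only at equal medians, and NR3C1 lies on the dashed line at the median of all tested genes.

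The order of levels changed between states. In control, TSC22D3 and SGK1 came first with overlapping values, followed by FKBP51, KLF9, NR3C1 and ZBTB16, whose values did not overlap with their neighbours. After LPS the order was FKBP51, TSC22D3, SGK1, ZBTB16, KLF9 and NR3C1, with no overlap between neighbours. FKBP51 thus moved from the third place to the first and ZBTB16 from last to above KLF9 and NR3C1.

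For each gene, the 3 genes with the most similar profile were found as the smallest Euclidean distance over the 4 libraries between log2(FPKM + 1) values less the control mean, among genes with a symbol and a mean FPKM within 2-fold. ZBTB16 had RIPK2, an innate immune kinase, at a distance of 0.31, then the potassium channel gene KCNJ5 at 0.38 and the insulin receptor substrate gene IRS4 at 0.38, among 3255 candidates. RIPK2 had 1.20 and 1.18 FPKM in control and 22.3 and 24.6 FPKM in LPS. FKBP51 had the ribonuclease inhibitor gene RNH1 at 0.27, the magnesium transporter gene SLC41A1 at 0.28 and WBP1L at 0.38, among 508. KLF9 had DDC at 0.24, ZNF385B at 0.24 and MSMB at 0.27, among 2991; in each of these, as in KLF9, LPS library 2 was the lowest. SGK1 had the nucleolin gene NCL at 0.31, PLPP2 at 0.37 and the ribosomal protein gene RPS21 at 0.39, among 738. TSC22D3 had C8orf4 at 0.49, the antiproliferative gene BTG1 at 0.50 and the interleukin-1 receptor accessory protein gene IL1RAP at 0.52, among 566. NR3C1, whose log2(FPKM + 1) values changed little, had much closer neighbours, with FLI1 at 0.030, MISP at 0.048 and WHSC1L1 at 0.050 among 2661. Distances over 4 libraries in 2 states mostly reflect the size of the change.

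Other genes of the pathway were read from 5 lists, with the 6 genes left out. The lists were chosen with earlier results of these data known. Some of their names were not matched to an entry and were not analysed here. Among them were HSD11B1, HSD11B2 and SERPINA6 for steroid supply and clearance. Regulatory targets not matched included PER1, CEBPD, ZFP36, DDIT4 and TXNIP, and metabolic targets not matched included G6PC, SDS and TDO2. Of 67 genes found, 61 were tested, of which 19 were called higher, 21 lower and 21 neither, with a median log2 fold change of −0.08 against −0.34 for all tested genes. At equal medians 20 were called higher and 14 lower. The shares over all tested genes were 10.7% higher and 31.4% lower, or 14.1% and 16.8% at equal medians.

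Genes known in mammals as regulatory targets of the receptor leaned upwards, in a list chosen with earlier results of these data known. Of 17 tested, 8 were called higher and 1 lower, with a median log2 fold change of 0.77. Over all tested genes 10.7% were called higher and 31.4% lower. At equal medians 9 of the 17 were called higher and none lower, against 14.1% and 16.8% of all tested genes. NFKBIA, the inhibitor that retains NF-kB in the cytoplasm, had 6.08 and 10.6 FPKM in control and 147 and 153 FPKM in LPS (log2 fold change 4.06, SE 0.24, adjusted p = 3.29e-05). TNFAIP3, a ubiquitin-editing brake on NF-kB, had 1.70 and 2.38 FPKM in control and 33.1 and 32.1 FPKM in LPS (3.47, SE 0.20, adjusted p = 2.70e-05). FOXO3, a forkhead factor of fasting and stress responses, had 3.06 and 5.39 FPKM in control and 34.8 and 34.9 FPKM in LPS (2.81, SE 0.24, adjusted p = 1.61e-04). Each of these 3 was higher in both LPS libraries than in either control library, as were 18.4% of all tested genes. NFKBIA and TNFAIP3 are also known targets of NF-kB itself. RGS2, a regulator of G protein signalling, was called lower, with 14.1 and 16.7 FPKM against 9.09 and 7.75 FPKM (−0.80, SE 0.19, adjusted p = 0.0136). The RGS2 call was lost without control library 2, with libraries at equal medians (adjusted p = 0.0805) and without LPS library 2. DUSP1, a phosphatase of MAP kinases, was not called as deposited, with 21.8 and 32.5 FPKM in control and 36.3 and 58.5 FPKM in LPS (0.77, adjusted p = 0.0561; chosen after its values were seen), but was called higher at equal medians.

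Metabolic targets of the receptor were called in both directions. Of 15 tested, 8 were higher and 4 lower, with a median log2 fold change of 1.27. Over all tested genes 10.7% were higher and 31.4% lower. With no filter on low values 6 of 16 metabolic targets were called higher and 3 lower, against 977 and 2714 of all 13427 genes. PDK4, a kinase that shuts pyruvate dehydrogenase in fasting, had 1.08 and 0.687 FPKM in control and 61.8 and 41.1 FPKM in LPS (log2 fold change 4.78, SE 0.25, adjusted p = 1.87e-05). The control mean of PDK4 was 0.882 FPKM, so it passed the filter on its LPS libraries. The metallothionein gene MT1 had 84.5 and 86.9 FPKM in control and 1144 and 1234 FPKM in LPS (3.78, SE 0.16, adjusted p = 9.88e-06). MT4, also a metallothionein gene, had 752 and 477 FPKM against 4772 and 4862 FPKM (3.00, SE 0.24, adjusted p = 1.01e-04); MT1 and MT4 are similar in sequence, and reads could be shared between them. The same libraries held ANGPTL4, a lipoprotein lipase inhibitor, at 542 and 385 FPKM in control and 26.2 and 30.9 FPKM in LPS (−3.96, SE 0.21, adjusted p = 2.22e-05). ALAS1, the first enzyme of heme synthesis, had 151 and 202 FPKM against 18.2 and 15.2 FPKM (−3.32, SE 0.20, adjusted p = 3.42e-05). GLUL, glutamine synthetase, had 1310 and 1690 FPKM against 255 and 261 FPKM (−2.52, SE 0.19, adjusted p = 7.47e-05). The amino acid transporter gene SLC7A2 was a weaker call (−0.81, SE 0.26, adjusted p = 0.0408). That call was lost at equal medians (adjusted p = 0.105) and with no filter (adjusted p = 0.0741). It was also lost without control library 1, LPS library 1 or LPS library 2.

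The 3 metabolic targets that were not called, chosen after their values were seen, are liver enzymes. TAT, tyrosine aminotransferase, had 291 and 404 FPKM in control and 369 and 431 FPKM in LPS, overlapping between groups (log2 fold change 0.22, adjusted p = 0.430). PEPCK, the gluconeogenic phosphoenolpyruvate carboxykinase, had 57.3 and 39.8 FPKM in control and 155 and 30.9 FPKM in LPS (0.53, adjusted p = 0.515), with the LPS libraries on either side of control. FBP1, fructose bisphosphatase, had 427 and 436 FPKM in control and 338 and 285 FPKM in LPS (−0.47, adjusted p = 0.0570).

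Of 6 tested genes for steroid supply and clearance, 2 were called higher and 1 lower, with a median log2 fold change of −0.27. The shares of all tested genes were 10.7% higher and 31.4% lower. The cytochrome P450 gene cyp3A37, of a family that hydroxylates steroids, had 514 and 404 FPKM in control and 1871 and 2257 FPKM in LPS (2.17, SE 0.20, adjusted p = 2.08e-04). H6PD, which supplies NADPH to the enzyme that regenerates active glucocorticoid in mammals, had 8.19 and 13.7 FPKM against 18.4 and 23.0 FPKM (0.89, SE 0.26, adjusted p = 0.0262). AKR1D1, a steroid 5-beta-reductase of bile acid synthesis and steroid clearance, had 132 and 143 FPKM against 69.5 and 52.1 FPKM (−1.18, SE 0.19, adjusted p = 0.00280). For all 3, both LPS libraries lay on one side of both control libraries. They lay above in 18.4% and below in 55.8% of all tested genes. The H6PD call was lost with no filter (adjusted p = 0.0669), without control library 1 and without LPS library 2.

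Receptor coregulators were called lower in 6 and higher in 1 of 13 tested genes, with a median log2 fold change of −0.27. Of all tested genes 31.4% were called lower and 10.7% higher, with a median of −0.34. At equal medians the shares of all tested genes were 16.8% lower and 14.1% higher. The coactivator gene NCOA1 had 18.6 and 29.6 FPKM in control and 9.75 and 8.95 FPKM in LPS (−1.24, SE 0.24, adjusted p = 0.00550). NCOA2, a coactivator of the same family, had 5.48 and 4.89 FPKM against 2.16 and 1.45 FPKM (−1.15, SE 0.22, adjusted p = 0.00547). NRIP1, a ligand-dependent corepressor, had 6.48 and 3.77 FPKM against 1.93 and 1.58 FPKM (−1.12, SE 0.26, adjusted p = 0.0124). Lower calls in the list numbered 4 at equal medians and 3 without LPS library 1, where 2317 of all 9484 tested genes were called lower.

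**Figure D3:**
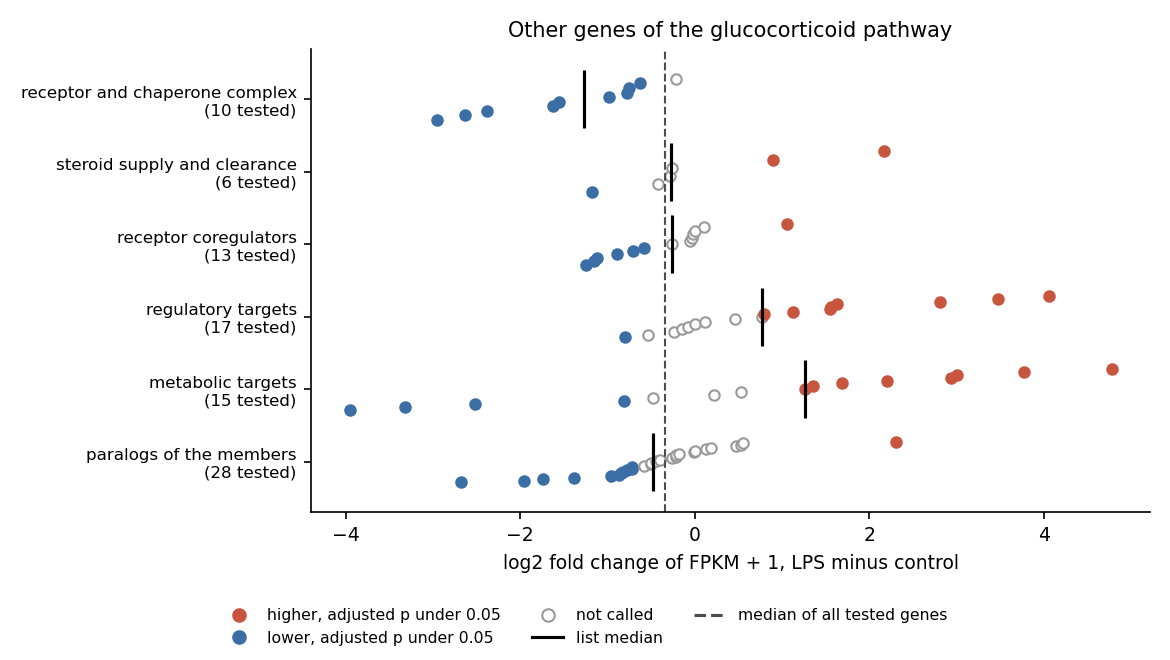
Log2 fold change of FPKM + 1, LPS minus control, for each tested gene of the 5 pathway lists and of the paralogs of the 6 genes, with list medians as vertical bars and the median of all tested genes as a dashed line. The chaperone points lie left of 0, with a median of −1.27, and the metabolic targets spread from −3.96 to 4.78.

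Of all 28 tested paralogs of the 6 genes, 1 was called higher (KLF5) and 11 lower, with a median log2 fold change of −0.48, and at equal medians 3 were called higher and 6 lower. Over all tested genes the lower share was 31.4%, or 16.8% at equal medians. The largest falls were those of KLF10, SGK2 and FKBP14, an immunophilin of the endoplasmic reticulum with 18.5 and 6.78 FPKM in control and 2.58 and 2.78 FPKM in LPS (−1.74, SE 0.39, adjusted p = 0.00973).

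m6A peaks were available as 1 list for each state, so the following values have no replicate check and no test. Fold enrichments are the authors' ratios of immunoprecipitated to input signal at a peak. The control list held 7813 peaks on 5048 genes and the LPS list 5938 peaks on 3992 genes. Of control peaks, 64.1% overlapped an LPS peak by at least 1 base, and of LPS peaks 87.6% overlapped a control peak. Over the 5006 control peaks that did, the median log2 ratio of LPS to control fold enrichment was −0.24. The 6 genes carried 8 control peaks and 4 LPS peaks, on NR3C1, FKBP51, SGK1 and TSC22D3. Coordinates are those of the deposited lists, whose genome build is not given in the sources used here.

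TSC22D3 had the strongest enrichment of the 6. Its gene spans chromosome 4, 1770827 to 1772689, on the plus strand, and a single peak in each list was annotated to the 3′ UTR. The control peak ran from 1771284 to 1772689 in 2 exon blocks of 967 bases in all, with a fold enrichment of 66.0, and 175 of 7813 control peaks were higher. The LPS peak ran from 1771313 to 1772689 in 2 blocks of 938 bases, with a fold enrichment of 54.8, and 143 of 5938 LPS peaks were higher. All 938 bases were shared, and the log2 ratio of LPS to control was −0.27, close to the median of all shared peaks.

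FKBP51 had the most peaks, 4 in control and 3 in LPS. Of genes with a control peak, 4.16% had at least 4, and of genes with an LPS peak, 9.92% had at least 3. The gene lies on the minus strand of chromosome 26, 61868 to 80894. Its 5′ UTR peak ran from 73824 to 80386 in control with 151 bases in 2 blocks and a fold of 2.07, and from 73068 to 80416 in LPS with 300 bases in 3 blocks and a fold of 1.69. The most enriched control peak lay in the 3′ UTR, from 62825 to 63153, with a fold of 24.8, and its LPS counterpart from 62795 to 63183 had a fold of 17.0. Both outer peaks were therefore wider but less enriched in LPS, with log2 ratios of −0.29 and −0.54. The median of all shared peaks was −0.24, close to the ratio of the 5′ UTR peak.

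Between those, control had a peak at exon 7 of 11, from 66021 to 67693, with a fold of 2.55, and a peak from 63333 to 65333, annotated to the 3′ UTR, with a fold of 9.97. In LPS a single peak from 63333 to 72062, in 7 blocks of 1137 bases, covered both with a fold of 10.4. Peak blocks covered 1200 bases of FKBP51 in control and 1826 bases in LPS, and all 1200 control bases were within LPS blocks, 65.7% of the LPS bases. The added LPS bases formed blocks between the 5′ UTR peak and the exon 7 peak and widened the edges of shared blocks. FKBP51 was 4.08-fold higher in the LPS input, and the part of that level in the peak width was not tested.

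NR3C1 carried 2 peaks in control and none in LPS. The gene lies on the minus strand of chromosome 13, 16854278 to 16904972. One peak, 16904526 to 16904615, lay in exon 1 of 8, 357 bases from the gene start, with a fold of 5.39 (p = 3.9e-09, the authors' value). The other, 16854427 to 16854516, lay in the 3′ UTR at 99.6% of the gene's length, with a fold of 6.59 (p = 1.5e-06, the authors' value). Each was 90 bases long, a width that 1.88% of control peaks had, and their folds stood above 49.1% and 57.4% of control peaks. Of 1668 control peaks on genes at a similar control level, 50.7% overlapped an LPS peak. Among genes at the level of NR3C1, 37.7% had a control peak and 21.6% an LPS peak, and the lower input level of NR3C1 in LPS stands beside its missing LPS peaks without a test of its part.

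SGK1 had 1 control peak and none in LPS. It lay in the 3′ UTR on the plus strand of chromosome 3, 55467505 to 55467594, within a gene from 55463039 to 55468606. It was 90 bases long with a fold of 1.35 (p = 1.3e-11, the authors' value), and 35 of 7813 control peaks had a lower fold. Of control peaks on genes at a similar control level, 73.6% overlapped an LPS peak.

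ZBTB16 and KLF9 had no peak in either list. Genes at the level of ZBTB16 had a peak in 8.5% of cases in control and 52.2% in LPS, and genes at the level of KLF9 in 61.3% and 45.2%. A gene without a listed peak may still carry the mark below what these lists call.

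**Figure D4:**
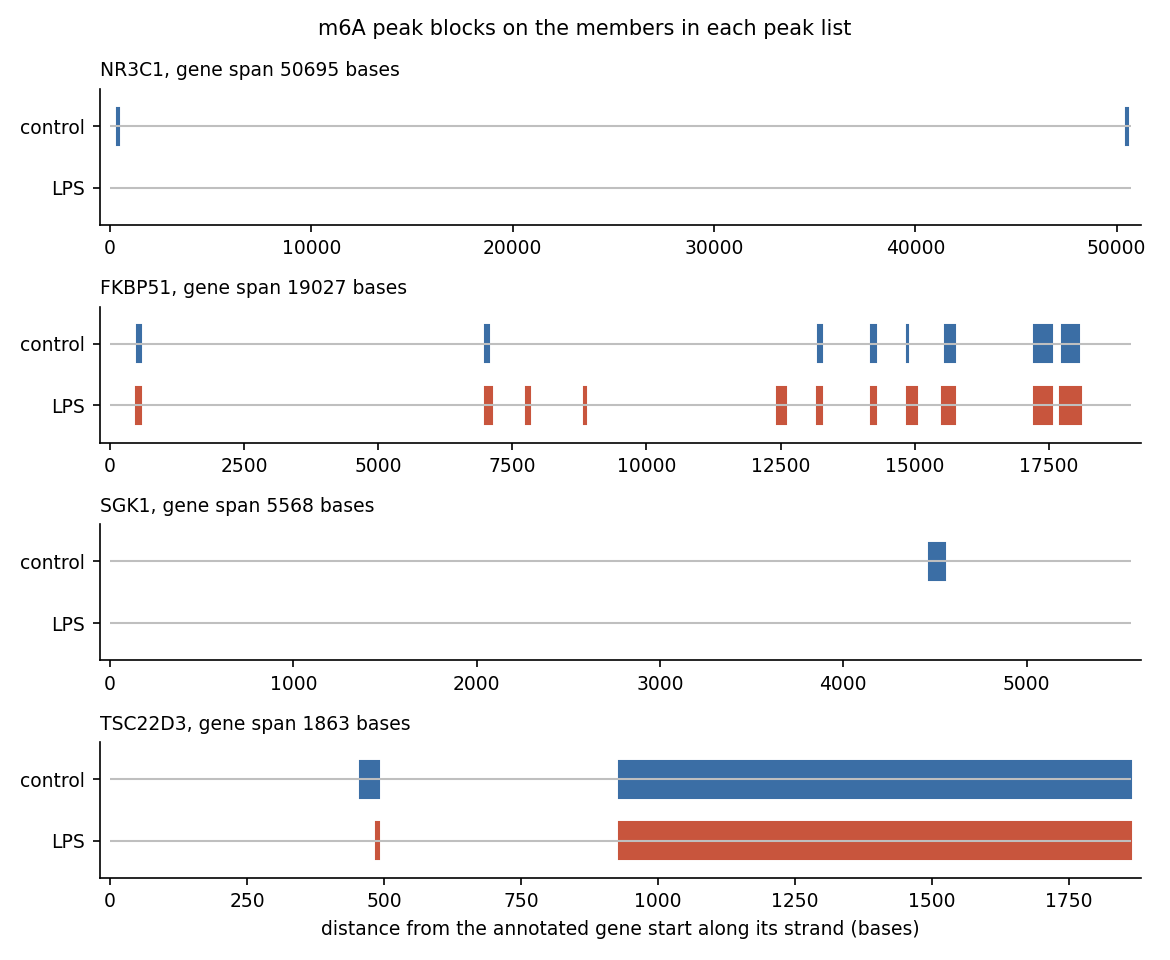
Exon blocks of the m6A peaks on the 4 genes that had any, by distance in bases from the annotated gene start along its strand, in the control list (upper row, blue) and the LPS list (lower row, red). NR3C1 and SGK1 have blocks in control only, TSC22D3 keeps nearly the same blocks, and FKBP51 has 8 blocks in control and 11 in LPS.

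Of the 67 other pathway genes, 40 had a control peak, 40 an LPS peak and 36 both. Over all genes, the lists held peaks on 5048 genes in control and 3992 in LPS, beside 13427 genes with expression values. The share with a peak varied with level. In control it was 8.5% for genes at the level of ZBTB16 and 63.6% at the level of TSC22D3. How many of all genes had a peak in 1 list only was not counted here. The 4 with a control peak only were DUSP1, PEPCK, NCOA2 and FKHR (the FOXO1 entry), and the 4 with an LPS peak only were SIRT1, PFKFB3, PDK4 and PNPLA2, all chosen after their peaks were seen. In the input, PFKFB3, PDK4 and PNPLA2 were called higher and SIRT1 was not called. NCOA2 was called lower there, and DUSP1, PEPCK and FKHR were not called. The part of input level in these peak differences was not tested. Of the 83 control peaks on the 67 genes, 68.7% overlapped an LPS peak, near the 64.1% of all control peaks.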

How the data were processed

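The authors deposited FPKM for each of the 4 input libraries (control and LPS, 2 each) and 1 peak list per state, giving for every peak a p-value and its fold enrichment, the ratio of IP over input signal. Columns and lists named as treated were read as LPS. HISAT2, StringTie, HOMER and ChIPseeker are named in the submitters' processing notes, with no role; which peak caller, build and strand setting were used is not given in the sources used here. FPKM carry no read totals. Ratios of low values put depth at 0.818 to 0.891 of control library 1 in the other libraries. This estimate is rough, as the step it used held 10 to 12 genes in those libraries, against 721 in control library 1. Depth limits precision for low genes such as NR3C1 and ZBTB16. No antibody control was analysed here.

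Genes averaging 1 FPKM or more were compared with limma 3.58.1 (R 4.3.3, trended prior variance, two-sided) on log2(FPKM + 1), after the script was tested on simulated data. With 2 libraries against 2, an exact permutation test of a single gene cannot go below 0.333. Peaks were matched in Python 3.11.15 by overlap of exon blocks of at least 1 base on the same strand, after 1 repeated entry per list was dropped; genes at a similar level were those with FPKM within 2-fold. A p listed as 0 is below what the format holds. Alternatives were another pseudocount, other filters, equal medians, a constant prior variance, a replicate block, leaving out each library, and stricter peak rules.

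Named genes were the 6 members, up to 3 called genes of each list and direction with the largest change (all where 5 or fewer went one way), and the 3 nearest profiles; others are marked, and 1 gene that the rule names is not reported here. Members and lists were chosen with earlier results of these data known. List names not found in the table by symbol were looked up in RefSeq (GRCg7b, names only). Sequences were not used here.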

Additional observations from a re-analysis of the deposited data

How the results depend on the processing

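ZBTB16 and FKBP51 were called higher and NR3C1 was not called under every alternative run, except that NR3C1 was not tested with a mean of at least 5 FPKM. KLF9 was not called with no filter (−1.25, adjusted p = 0.0539) and ranged from −1.73 to −0.77 when each library was left out, so lower members numbered 0 with no filter and 0 to 1 over the left-out libraries. TSC22D3 passed with a mean of at least 5 FPKM (0.80, adjusted p = 0.0460), at equal medians (1.11) and with a replicate block (0.80, adjusted p = 0.0120), and ranged from 0.38 to 1.22 over left-out libraries. SGK1 ranged from −0.24 to 0.62. With all 4 libraries, higher members numbered 3 in each setting that called TSC22D3 and otherwise 2. Over all tested genes, lower calls went from 2982 to 1594 at equal medians. With the replicate number as a block, 1071 genes were called higher and 3150 lower, against 1014 and 2982; the numbers were not shown to pair libraries (correlation of deviations 0.029 over 9484 genes), and no other member's call changed. With 1 library left out, the lone library is assumed to vary like the others. With 1 LPS library left out, standard errors were nearly the same for genes of similar level. Without LPS library 1 they were 0.271 for each of FKBP51, SGK1 and TSC22D3. Calls from these fits therefore do not measure the spread of the single gene.

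Requiring a fold of at least 5 left 5 control peaks on the 6 genes and 3 shared ones, and a 50% reciprocal overlap left 3 shared of 5. Less the median of all shared peaks, the log2 differences were −0.05, 2.27, 0.30 and −0.30 for FKBP51 from its start and −0.03 for TSC22D3. The 2.27, like the 2.03 before it, sets a small control peak against a merged LPS peak. The cause of these shifts was not tested. With 2 libraries per group and 1 peak list per state, changes near the spread of KLF9, SGK1 and TSC22D3 were not resolved.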
